A study of Mus musculus with 20 samples.

Results

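The BCL2 family was followed through 10 of its genes, out of 23992 gene symbols in the deposited RNA-sequencing tables of cytokine-treated mouse CD8+ T cells. The members were chosen by symbol, with earlier results of these data known. They were the survival genes Bcl2, Bcl2l1, Mcl1 and Bcl2a1b, the BH3-only genes Bcl2l11, Bbc3, Pmaip1 and Bid, and the effectors Bax and Bak1. All 10 had reads in each of the 20 libraries and passed the filter on low counts in both experiments. Where a gene had more than 1 transcript (Bcl2 and Bcl2l11), the longest was used, which also had the most reads.

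CD8+ T cells had been purified by negative selection from spleens of wild-type C57BL/6J mice aged 6 to 8 weeks. All cells, controls included, were activated for 48 hours with plate-bound anti-CD3 plus soluble anti-CD28 and then rested overnight. For the next 24 hours they received murine IL-21 (mIL-21), or 21h10, a computationally designed protein that binds the IL-21 receptor, or neither (unstimulated). Experiment 1 used 100 pM and 1 nM, and experiment 2 used 10 nM and 100 nM. Both experiments included unstimulated cells, which made 5 groups of duplicate libraries (n = 2 per group) in each. Dose range and experiment change together and cannot be told apart, so the experiments were fitted separately. The labels do not say whether duplicates were separate cultures or animals, so p-values measure only the spread between these libraries, which may be technical.

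BCL2 family proteins decide whether the outer mitochondrial membrane is breached, the committing step of intrinsic apoptosis. BAX and BAK, the effectors, form the pores. BCL2, BCL-XL (from Bcl2l1), MCL1 and A1 (from Bcl2a1b) hold the effectors and their activators in check, while BH3-only proteins such as BIM (Bcl2l11), PUMA (Bbc3), NOXA (Pmaip1) and BID bind the survival proteins or activate the effectors. In T cells, BIM and BCL2 are known as the pair that sets survival when cytokine is withdrawn, A1 and BCL-XL as genes induced by antigen receptor and costimulation, and NOXA as a partner of MCL1.

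Libraries held 36829350 to 94079673 reads on genes in experiment 1 and 27074399 to 43303144 in experiment 2, and reads on a member ran from 77 (Bbc3) to 26284 (Mcl1). Duplicates varied by 4.32% (biological coefficient of variation in edgeR) in experiment 1 and by 8.80% in experiment 2, so that smaller differences could be called in the former. By deposited RPKM, each of the CD8+ T cell markers in the tables (4 of 5 listed: Cd3e, Cd3g, Cd8a and Cd8b1) was at 102 or more in every library. Summed markers of other cells were at most 1.10 for CD4+ T cells, 1.05 for B cells, 0.461 for NK cells and 0.146 for erythroid cells. Of the 3 myeloid markers in the tables, Lyz2 was at most 0.232 and Csf1r at most 0.0128, while Itgam was at most 0.573 in unstimulated cells and 2.76 to 16.6 in treated ones. The part of Itgam-expressing cells in the results was not tested. In bulk RNA of this kind, fewer cells of a type and less RNA per cell cannot be told apart.

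Levels below are scaled RPKM, that is, reads on a transcript divided by its length and by the library's reads on genes, in the units of RPKM, after TMM (trimmed mean of M values) scaling, which evens out differences in library make-up and is also the scaling of the tests. A gene passed the test, or was called, at an adjusted p under 0.05 in the quasi-likelihood test of edgeR, adjusted by Benjamini and Hochberg's method over all genes tested. On the scale of the deposited RPKM, which divides by mapped reads, the median log2 change of all genes against unstimulated cells was -0.32 to -0.19 in experiment 2 and -0.12 to 0.076 in experiment 1, where TMM put it at -0.038 to 0. Of the genes called in experiment 2, 48.7% to 50.3% were higher with TMM and 23.3% to 29.8% with mapped reads. No member that passed the test changed direction with the scaling.

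Promoter sequence is shown for Bcl2 and Bcl2l11, a survival gene and its BH3-only antagonist that rose together, and for Bbc3, which moved opposite ways in the experiments. RefSeq promoter windows (GRCm38.p6, from 250 bases before to 50 after a start site) were found for 9 of the 10 members, all but Pmaip1. They were searched on both strands for GTAAACA, a motif of FOXO factors, and for TTCNNNGAA, the motif bound by STAT dimers. GTAAACA lies in 1199 of 32851 promoter windows (3.65%), and among members it lay in a Bcl2l11 window at position -227 and, as TGTTTAC on the other strand, in a Bbc3 window at position -167 from the start site. TTCNNNGAA lies in 2726 windows (8.30%), and these letters were in no member's window, so the motifs did not overlap. Capitals mark the match, and the Bcl2 window, shown beside its antagonist's, has none.
Bcl2, chr1:106714241-106714540, minus strand: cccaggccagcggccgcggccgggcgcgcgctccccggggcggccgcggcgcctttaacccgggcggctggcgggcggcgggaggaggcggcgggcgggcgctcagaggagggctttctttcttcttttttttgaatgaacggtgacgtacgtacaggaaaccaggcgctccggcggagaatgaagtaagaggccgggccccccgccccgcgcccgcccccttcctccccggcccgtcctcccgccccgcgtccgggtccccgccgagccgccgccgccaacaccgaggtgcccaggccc
Bcl2l11, chr2:128125788-128126087, plus strand: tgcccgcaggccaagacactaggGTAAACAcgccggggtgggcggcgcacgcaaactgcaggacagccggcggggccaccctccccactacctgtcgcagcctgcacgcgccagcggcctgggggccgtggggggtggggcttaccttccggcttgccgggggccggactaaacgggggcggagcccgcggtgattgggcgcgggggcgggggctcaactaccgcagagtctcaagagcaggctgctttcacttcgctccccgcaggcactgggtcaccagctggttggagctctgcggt
Bbc3, chr7:16310011-16310310, plus strand: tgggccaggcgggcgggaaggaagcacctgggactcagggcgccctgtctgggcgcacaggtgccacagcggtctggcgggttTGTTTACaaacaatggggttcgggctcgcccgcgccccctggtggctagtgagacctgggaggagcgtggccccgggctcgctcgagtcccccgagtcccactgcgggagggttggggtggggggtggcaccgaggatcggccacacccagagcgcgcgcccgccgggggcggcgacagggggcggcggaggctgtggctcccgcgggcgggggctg

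In unstimulated cells of experiment 1, Bax was the most abundant member, at a mean of 112 scaled RPKM. Mcl1 at 64.0 and Bak1 at 63.3 followed, with ranges that overlapped, then Bcl2a1b at 49.9, Bid at 23.8, Bcl2l1 at 21.4, Bcl2 at 16.1, Pmaip1 at 14.7, Bbc3 at 8.24 and Bcl2l11 at 5.96. In those of experiment 2, Mcl1 led at 85.2, before Bak1 at 49.8 and Bax at 41.5, whose ranges overlapped, Bcl2a1b at 28.3 and Bcl2 at 21.8. Bcl2l1 at 12.2 overlapped with Bid at 11.3, and Bcl2l11 at 9.31 with Pmaip1 at 8.91, while Bbc3 was lowest at 3.93. Unstimulated cells of the 2 experiments thus stood at unlike levels. Bax, Bak1, Bid, Bcl2l1, Bcl2a1b, Pmaip1 and Bbc3 were lower and Mcl1, Bcl2 and Bcl2l11 higher in experiment 2. These differences were not tested, and levels were scaled within each experiment. With 100 nM of 21h10 the order was Mcl1 at 164, Bak1 at 81.1, Bcl2 at 63.9 and Bax at 35.2, then Pmaip1 at 28.9 and Bcl2l11 at 27.5, which overlapped, Bcl2a1b at 23.7, Bid at 8.08, Bcl2l1 at 7.55 and Bbc3 at 1.56.

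**Figure D1:**
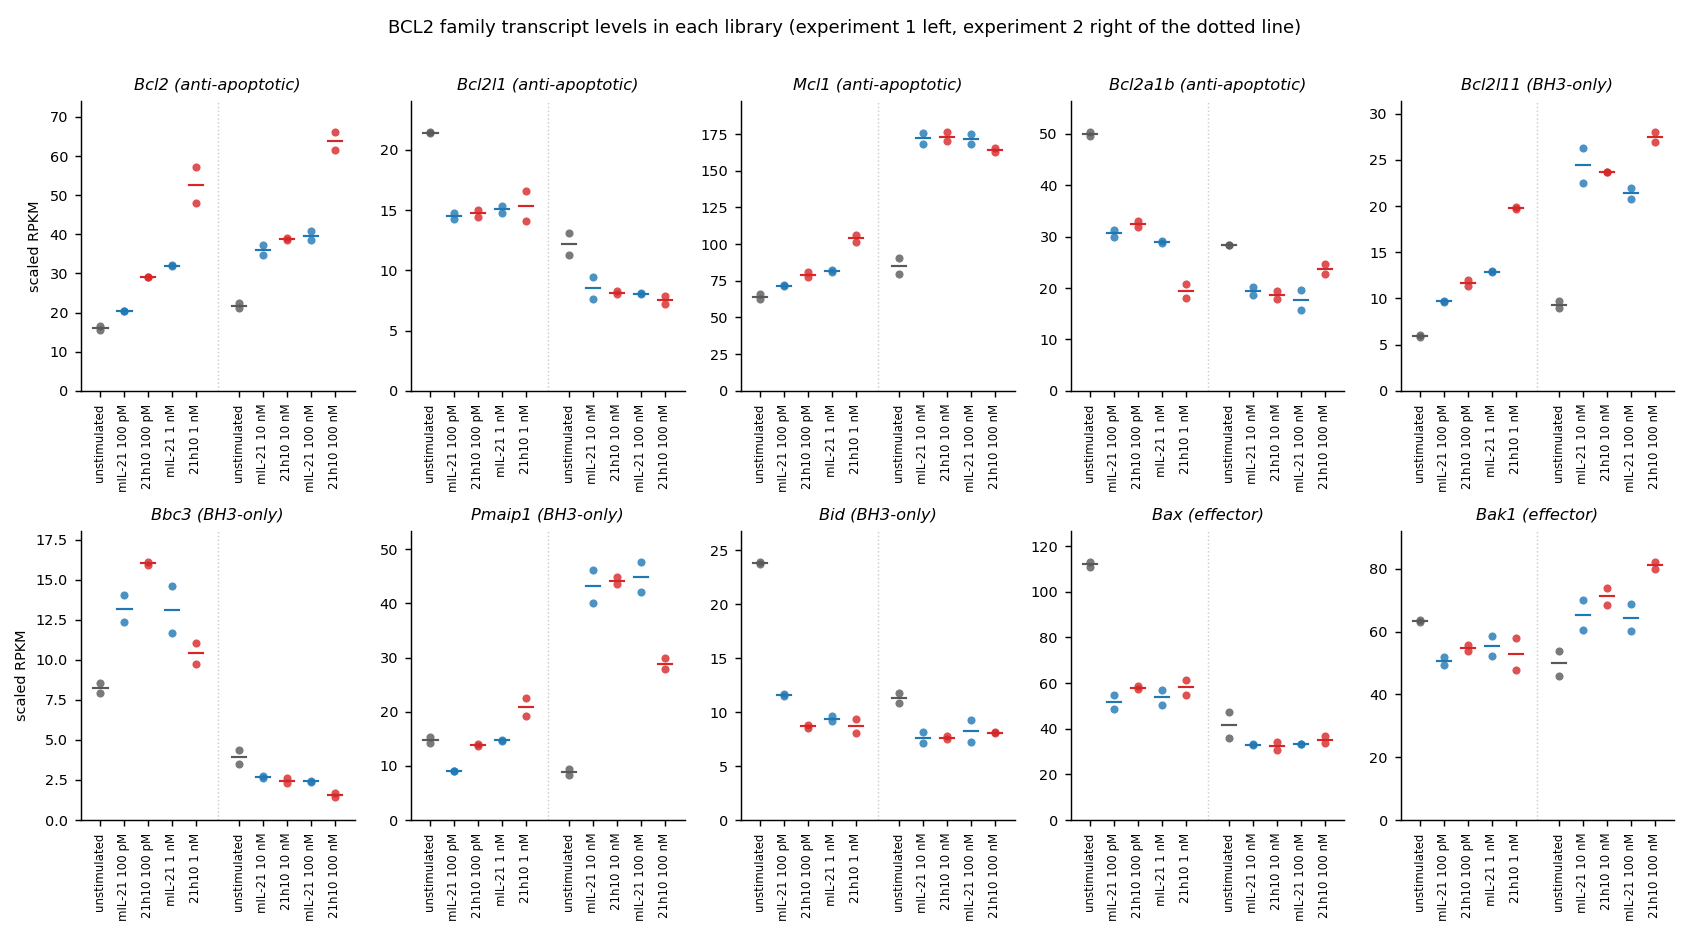
Scaled RPKM (y axis, linear and from 0) of each member in every library (points) with the mean of the duplicates (bars), for unstimulated (grey), mIL-21 (blue) and 21h10 (red) groups along the x axis. Bcl2 reached 48.1 and 57.1 with 21h10 at 1 nM and 66.1 and 61.7 at 100 nM, and Pmaip1 stood at 47.7 and 42.2 with mIL-21 at 100 nM but at 29.9 and 27.9 with 21h10.

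Every cytokine and dose was compared with the unstimulated cells of its own experiment, which asks how the family responds to IL-21 receptor signals. In experiment 1, 10 members were called with 100 pM of mIL-21 (4 higher, 6 lower), where 77.7% of the 13974 genes tested were called. The count was 9 with 100 pM of 21h10 (4 higher, 5 lower; 81.6% of genes), 9 with 1 nM of mIL-21 (4 higher, 5 lower; 80.1%) and 10 with 1 nM of 21h10 (5 higher, 5 lower; 80.3%). In experiment 2, 10 were called with 10 nM of mIL-21 (46.2% of 13772 genes), 10 with 10 nM of 21h10 (50.1%) and 10 with 100 nM of mIL-21 (46.2%), each time 5 higher and 5 lower. With 100 nM of 21h10 the count was 8 (5 higher, 3 lower; 50.8% of genes). Most genes changed in experiment 1, so the number of members called there stood near the background, and the median size of a member's log2 change with 1 nM of 21h10, 0.82, lay beside 0.69 over all genes. In experiment 2 the same medians with 100 nM of 21h10 were 0.83 and 0.42. The 4 comparisons of an experiment share its unstimulated libraries.

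**Figure D2:**
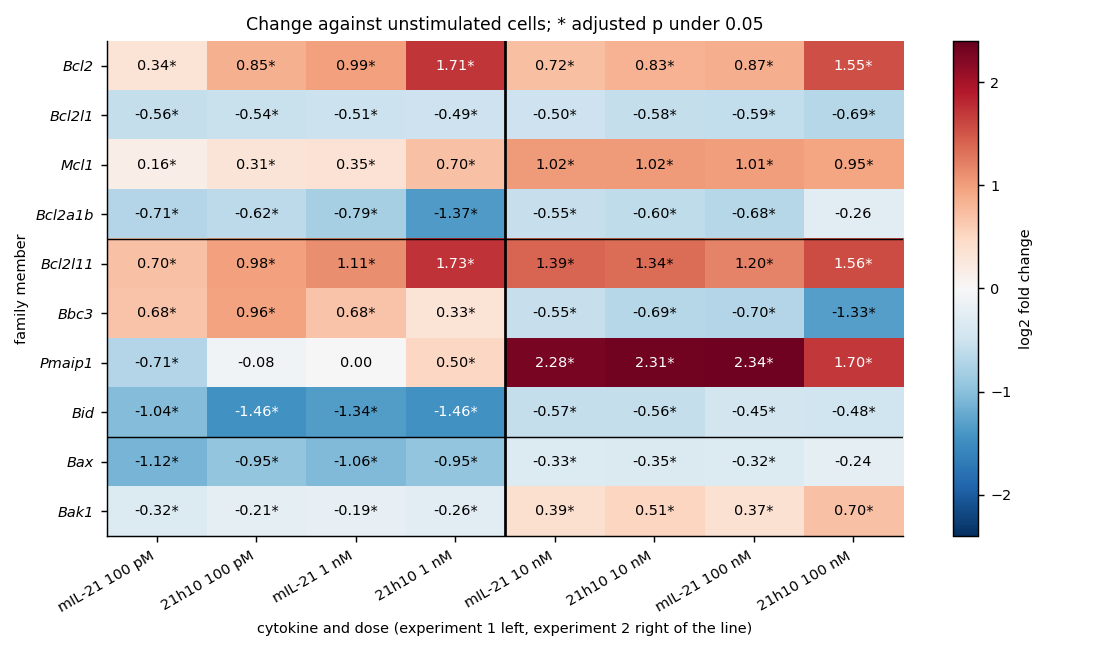
Log2 fold change of each member (rows, in the order survival, BH3-only and effector genes) against unstimulated cells of the same experiment for each cytokine and dose (columns), with red for higher and blue for lower. Bcl2, Mcl1 and Bcl2l11 were higher in all 8 columns, Bcl2l1 and Bid lower in all 8, and Bbc3 and Bak1 changed sign between the experiments.

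Bcl2 (chr1:106538178-106714274, minus strand), the founding survival gene of the family, rose in all 8 comparisons. Positions here and below are of the gene in GENCODE M21 on GRCm38, the build of the deposited counts. In experiment 1 it stood at 16.5 and 15.6 scaled RPKM in the unstimulated libraries, 20.3 and 20.4 with 100 pM of mIL-21, 29.0 and 29.0 with 100 pM of 21h10, 31.9 and 32.0 with 1 nM of mIL-21 and 48.1 and 57.1 with 1 nM of 21h10. No 2 of these groups overlapped, and each was above the group before it. The log2 fold changes against unstimulated cells were 0.34 ± 0.062 (SE; adjusted p = 9.0e-05), 0.85 ± 0.062, 0.99 ± 0.062 and 1.71 ± 0.063 (adjusted p = 3.9e-14), the last a 3.27-fold level. In experiment 2 it went from 21.2 and 22.4 to 34.6 and 37.4 with 10 nM of mIL-21, 39.1 and 38.6 with 10 nM of 21h10, 38.6 and 40.8 with 100 nM of mIL-21 and 66.1 and 61.7 with 100 nM of 21h10. There 21h10 at 100 nM stood above the rest (2.93-fold, log2 1.55 ± 0.08, adjusted p = 2.7e-10), and the other treated groups lay between 0.72 and 0.87 on the log2 scale. All 8 calls stood under every alternative run.

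Mcl1 (chr3:95658788-95663176, plus strand), a survival gene with a short-lived product, gave the largest share of survival transcripts in all 20 libraries and rose in all 8 comparisons. Its level went from 65.7 and 62.3 scaled RPKM to 71.3 and 72.1 with 100 pM of mIL-21, 77.3 and 81.2 with 100 pM of 21h10, 82.1 and 80.7 with 1 nM of mIL-21 and 102 and 106 with 1 nM of 21h10. The treated libraries were all above the unstimulated ones, by log2 0.16 ± 0.047 (adjusted p = 0.0043) to 0.70 ± 0.047 (adjusted p = 2.0e-10). Without duplicate 2 of the unstimulated cells, the smallest of these, at 100 pM of mIL-21, was 0.12 and no longer passed (adjusted p = 0.09). In experiment 2 Mcl1 went from 79.6 and 90.8 to 176 and 169 (10 nM of mIL-21), 176 and 170 (10 nM of 21h10), 175 and 168 (100 nM of mIL-21) and 166 and 163 (100 nM of 21h10). The treated groups overlapped one another or lay close together, at about 1.93 to 2.03 times the unstimulated level (log2 0.95 ± 0.081 to 1.02 ± 0.081, adjusted p = 1.3e-07 for the smallest).

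Bcl2l1 (chr2:152780668-152831728, minus strand), which encodes BCL-XL, fell in all 8 comparisons by a like amount. From 21.4 and 21.4 scaled RPKM in the unstimulated cells of experiment 1 it went to 14.3 and 14.7 with 100 pM of mIL-21, 15.02 and 14.4 with 100 pM of 21h10, 14.7 and 15.4 with 1 nM of mIL-21 and 16.6 and 14.1 with 1 nM of 21h10. The log2 changes were -0.56, -0.54, -0.51 and -0.49 (SE 0.066 to 0.067, adjusted p at most 3.1e-06). In experiment 2 it went from 13.1 and 11.3 to 7.66 and 9.46 with 10 nM of mIL-21, 8.05 and 8.24 with 10 nM of 21h10, 8.12 and 8.01 with 100 nM of mIL-21 and 7.88 and 7.23 with 100 nM of 21h10, and no treated library reached the unstimulated ones. The changes were -0.50, -0.58, -0.59 and -0.69 (adjusted p at most 0.0031). Without duplicate 1 of 10 nM of mIL-21 that group's value was -0.36 (adjusted p = 0.061).

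Bcl2a1b (chr9:89199209-89207827, plus strand), a copy of the A1 survival gene that NF-kB induces in lymphocytes, also fell. It stood at 50.3 and 49.5 scaled RPKM in unstimulated cells of experiment 1, and at 29.99 and 31.3 with 100 pM of mIL-21, 31.9 and 33.0 with 100 pM of 21h10, 28.7 and 29.1 with 1 nM of mIL-21 and 20.8 and 18.1 with 1 nM of 21h10. The last was the lowest of the 5 groups, at 0.388 of the unstimulated level (log2 -1.37 ± 0.07, adjusted p = 4.5e-12), and the other 3 changes were -0.62 to -0.79. In experiment 2 the levels were 28.4 and 28.3 unstimulated, 20.2 and 18.6 with 10 nM of mIL-21, 19.5 and 17.8 with 10 nM of 21h10, 19.6 and 15.8 with 100 nM of mIL-21 and 22.7 and 24.8 with 100 nM of 21h10. Here 21h10 at 100 nM was the treated group nearest to the unstimulated one, with a log2 change of -0.26 ± 0.13 that did not pass (adjusted p = 0.1), while with mapped-read scaling it was -0.56 and did (adjusted p = 0.0024). The Bcl2a1b transcript matches Bcl2a1d over all 817 bases at 99.1% identity and Bcl2a1a at 98.2%, and 49.1% of its exonic bases lie in Gm29094 on the same strand. How reads were shared among the copies is not stated, so the level of this copy is uncertain. The listed copies moved with it, Bcl2a1d by -1.52 and Bcl2a1a by -1.51 with 1 nM of 21h10.

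Bcl2l11 (chr2:128126038-128162547, plus strand), the gene of the BH3-only protein BIM and the main antagonist of BCL2 in T cells, rose in all 8 comparisons. It went from 5.87 and 6.06 scaled RPKM, the lowest of the 10 members, to 9.77 and 9.65 with 100 pM of mIL-21, 11.4 and 12.02 with 100 pM of 21h10, 12.8 and 12.9 with 1 nM of mIL-21 and 19.7 and 19.9 with 1 nM of 21h10. As for Bcl2, the groups did not overlap and followed one another in the same order. The changes were 0.70 ± 0.052, 0.98 ± 0.05, 1.11 ± 0.051 and 1.73 ± 0.051 (adjusted p = 8.5e-10 for the smallest). In experiment 2 the levels were 9.70 and 8.92 unstimulated, 22.5 and 26.3 with 10 nM of mIL-21, 23.6 and 23.7 with 10 nM of 21h10, 20.8 and 22.0 with 100 nM of mIL-21 and 28.0 and 27.0 with 100 nM of 21h10. All treated libraries were above both unstimulated ones, with log2 changes of 1.199 to 1.56 (adjusted p at most 2.7e-08). These 8 calls, too, stood under every alternative.

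Pmaip1, whose product NOXA binds MCL1, rose in 5 of the 8 comparisons and fell in 1. In experiment 1 it was at 15.3 and 14.2 scaled RPKM unstimulated, 9.07 and 9.04 with 100 pM of mIL-21, 13.7 and 14.1 with 100 pM of 21h10, 14.8 and 14.7 with 1 nM of mIL-21 and 19.3 and 22.5 with 1 nM of 21h10. It fell with 100 pM of mIL-21 (log2 -0.71 ± 0.07, adjusted p = 5.4e-08) and rose with 1 nM of 21h10 (0.50 ± 0.066, adjusted p = 1.8e-06). The other 2 changes did not pass, at -0.082 ± 0.066 and -0.0044 ± 0.068. In experiment 2 it went from 8.32 and 9.51 to 46.2 and 40.1 with 10 nM of mIL-21, 44.9 and 43.5 with 10 nM of 21h10, 47.7 and 42.2 with 100 nM of mIL-21 and 29.9 and 27.9 with 100 nM of 21h10. These were the largest changes of any member, 4.85-, 4.96- and 5.05-fold (log2 2.28 ± 0.1, 2.31 ± 0.1 and 2.34 ± 0.1, adjusted p at most 4.3e-11), with 21h10 at 100 nM set apart at 3.24-fold (1.70 ± 0.1).

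Bbc3 (chr7:16308393-16318205, plus strand), the gene of PUMA, rose in experiment 1 and fell in experiment 2. In experiment 1 it went from 7.91 and 8.58 scaled RPKM to 14.0 and 12.3 with 100 pM of mIL-21, 16.1 and 15.9 with 100 pM of 21h10, 11.6 and 14.6 with 1 nM of mIL-21 and 11.1 and 9.74 with 1 nM of 21h10. It was highest with 100 pM of 21h10 (log2 0.96 ± 0.092, adjusted p = 2.8e-08), and the smallest rise was 0.33 ± 0.098 (adjusted p = 0.0047) with 1 nM of 21h10, which was lost without duplicate 1 of the unstimulated cells (0.27, adjusted p = 0.058). In experiment 2 the levels were 4.37 and 3.49 unstimulated, 2.74 and 2.65 with 10 nM of mIL-21, 2.60 and 2.28 with 10 nM of 21h10, 2.39 and 2.45 with 100 nM of mIL-21 and 1.68 and 1.45 with 100 nM of 21h10, all treated libraries below the unstimulated ones. The changes were -0.55 ± 0.18, -0.69 ± 0.18, -0.70 ± 0.18 and -1.33 ± 0.19, all called, the largest at an adjusted p of 4.0e-05. Bbc3 had few reads in experiment 2 (77 to 359 a library), and without duplicate 1 of the unstimulated cells the first 3 became -0.38, -0.52 and -0.53 and no longer passed (adjusted p = 0.18, 0.061 and 0.06). The call at 10 nM of mIL-21 was also lost without either library of that group (-0.52 to -0.57) and that at 10 nM of 21h10 without its duplicate 2 (-0.60). The difference between the experiments was not tested.

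Bid (chr6:120891930-120916853, minus strand), whose product links death receptors to mitochondria once cut by caspase-8, fell in all 8 comparisons. It went from 23.9 and 23.7 scaled RPKM to 11.5 and 11.7 with 100 pM of mIL-21, 8.83 and 8.49 with 100 pM of 21h10, 9.60 and 9.16 with 1 nM of mIL-21 and 9.31 and 8.10 with 1 nM of 21h10. The log2 change was -1.04 ± 0.068 at its smallest and -1.46 ± 0.067 with 100 pM of 21h10, to 0.363 of the unstimulated level (adjusted p = 1.1e-12). In experiment 2 Bid started lower, at 11.7 and 10.8, and stood at 8.15 and 7.09 with 10 nM of mIL-21, 7.76 and 7.499 with 10 nM of 21h10, 9.30 and 7.18 with 100 nM of mIL-21 and 8.13 and 8.02 with 100 nM of 21h10. The changes there were -0.57, -0.56, -0.45 and -0.48 (adjusted p at most 0.012). The third of these did not pass without duplicate 1 of the unstimulated cells (-0.39) or without duplicate 2 of its own group (-0.28), and 17.7% of the exonic bases of Bid overlap Bcl2l13 on the opposite strand, which unstranded counts would not separate.

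Bax (chr7:45461697-45466898, minus strand), the effector that moves from cytosol to mitochondria, fell in experiment 1. It went from 111 and 113 scaled RPKM to 54.7 and 48.4 with 100 pM of mIL-21, 58.5 and 57.4 with 100 pM of 21h10, 50.5 and 57.1 with 1 nM of mIL-21 and 61.3 and 55.0 with 1 nM of 21h10. The treated groups lay at 0.461 to 0.518 of the unstimulated level (log2 -1.12 ± 0.068 to -0.95 ± 0.068, adjusted p at most 5.2e-10). In experiment 2 the unstimulated duplicates were 47.2 and 35.8, and the levels were 33.4 and 32.7 with 10 nM of mIL-21, 34.3 and 30.7 with 10 nM of 21h10, 33.3 and 33.1 with 100 nM of mIL-21 and 36.7 and 33.8 with 100 nM of 21h10, so that 1 treated library lay above the lower unstimulated one. The changes were -0.33, -0.35 and -0.32 (adjusted p = 0.035, 0.025 and 0.04), and -0.24 ± 0.12 with 100 nM of 21h10, which did not pass. With mapped reads all 4 were larger and called, at -0.51, -0.63, -0.55 and -0.54, and with only the groups compared the first 3 were not called (adjusted p = 0.1, 0.074 and 0.11). The calls with TMM scaling rest on the unstimulated libraries, since without duplicate 1 the first 3 changes were -0.12, -0.14 and -0.11, none called, and without duplicate 2 -0.52, -0.54, -0.51 and -0.43, all called. The calls were also lost without either library of the mIL-21 groups (-0.32 to -0.34 at 10 nM, about -0.32 at 100 nM) and without duplicate 2 of 10 nM of 21h10 (-0.28). On the same strand, 12.2% of the exonic bases of Bax lie in Gm45808.

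Bak1 (chr17:27019810-27029009, minus strand), the effector that sits in the mitochondrial membrane, was slightly lower with cytokine in experiment 1 and higher in experiment 2. Its levels were 63.2 and 63.5 scaled RPKM unstimulated, 51.8 and 49.4 with 100 pM of mIL-21, 55.7 and 53.9 with 100 pM of 21h10, 52.2 and 58.5 with 1 nM of mIL-21 and 57.9 and 47.9 with 1 nM of 21h10. The changes were -0.32 ± 0.071, -0.21 ± 0.07, -0.19 ± 0.071 and -0.26 ± 0.071, and all passed. Without 1 library, the last 3 could miss the threshold, at -0.18 without duplicate 2 of 100 pM of 21h10, at -0.10 without duplicate 1 of 1 nM of mIL-21, at -0.20 or -0.19 without an unstimulated library, and at -0.13 without duplicate 2 of 1 nM of 21h10, whose other duplicate left out gave -0.40. In experiment 2 Bak1 went from 53.9 and 45.7 to 60.4 and 69.9 with 10 nM of mIL-21, 68.5 and 73.9 with 10 nM of 21h10, 60.2 and 68.7 with 100 nM of mIL-21 and 82.3 and 80.0 with 100 nM of 21h10. The last was the highest (log2 0.70 ± 0.1, adjusted p = 3.6e-05) and was called on the mapped-read scale too (0.40). The other 3 were 0.39 ± 0.1, 0.51 ± 0.1 and 0.37 ± 0.1 and passed with TMM scaling but not with mapped reads (0.21, 0.24 and 0.14). The mIL-21 calls also missed the threshold without duplicate 2 of their own groups (0.28 at 10 nM, 0.27 at 100 nM) and, at 100 nM, without duplicate 2 of the unstimulated cells (0.25). On the opposite strand, 18.2% of the exonic bases of Bak1 overlap Ggnbp1.

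The make-up of the survival group shifted from Bcl2a1b and Bcl2l1 to Mcl1 and Bcl2. In experiment 1, Bcl2 was 10.6 ± 0.16% (SD, n = 2) of the summed scaled RPKM of the 4 survival genes in unstimulated cells and 27.5 ± 2.4% with 1 nM of 21h10, while Bcl2a1b went from 33.0 ± 0.41% to 10.2 ± 1.3%. In experiment 2, Mcl1 was 57.7 ± 2.5% of the sum in unstimulated cells, 72.4 ± 0.2% with 100 nM of mIL-21 and 63.3 ± 0.21% with 100 nM of 21h10, where Bcl2 took 24.6 ± 0.79%. The share of Bcl2 there was 14.8 ± 0.18% unstimulated, and 15.2 ± 1.0% and 16.3 ± 0.24% with 10 nM of mIL-21 and 21h10. With 100 nM of mIL-21 it was 16.8 ± 1.1%. The sum itself was 151 ± 3.6 unstimulated, 137.1 ± 1.8 with 100 pM of mIL-21, 155 ± 3.1 with 100 pM of 21h10, 157 ± 0.21 with 1 nM of mIL-21 and 191 ± 6.0 with 1 nM of 21h10 in experiment 1. In experiment 2 it was 147 ± 7.4 unstimulated, 236 ± 3.1 with 10 nM of mIL-21 and 239 ± 5.5 with 10 nM of 21h10. It was 237 ± 6.1 with 100 nM of mIL-21 and 259 ± 4.3 with 100 nM of 21h10. Sums weigh abundant members most and are given as a description, with no test.

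Among BH3-only transcripts, Bid gave 45.1 ± 0.042% of the sum in unstimulated cells of experiment 1 and 14.6 ± 1.6% with 1 nM of 21h10, as Bcl2l11 went from 11.3 ± 0.33% to 33.1 ± 0.11%. In experiment 2 Pmaip1 went from 26.7 ± 3.3% unstimulated to 58.3 ± 1.7% with 100 nM of mIL-21, and was 43.8 ± 0.62% with 100 nM of 21h10. The BH3-only sum in experiment 1 was 52.8 ± 0.34 unstimulated, 43.5 ± 1.1 with 100 pM of mIL-21, 50.3 ± 0.35 with 100 pM of 21h10, 50.1 ± 1.8 with 1 nM of mIL-21 and 59.8 ± 0.57 with 1 nM of 21h10. In experiment 2 it was 33.4 ± 0.97 unstimulated, 77.0 ± 4.5 with 100 nM of mIL-21 and 66.0 ± 2.4 with 100 nM of 21h10. The ratio of Bcl2 to Bcl2l11 in experiment 1 was 2.70 ± 0.17 in unstimulated cells, 2.09 ± 0.023 with 100 pM of mIL-21, 2.48 ± 0.096 with 100 pM of 21h10, 2.48 ± 0.0056 with 1 nM of mIL-21 and 2.66 ± 0.3 with 1 nM of 21h10, where the levels of the 2 genes were 3.27- and 3.32-fold higher. In experiment 2 it was 2.35 ± 0.23 unstimulated, 1.48 ± 0.082 with 10 nM of mIL-21, 1.64 ± 0.014 with 10 nM of 21h10, 1.86 ± 0.0041 with 100 nM of mIL-21 and 2.32 ± 0.054 with 100 nM of 21h10. The ratio of Mcl1 to Pmaip1 was higher with cytokine in experiment 1, at 4.34 ± 0.067 unstimulated, 7.92 ± 0.078 with 100 pM of mIL-21, 5.69 ± 0.084 with 100 pM of 21h10, 5.53 ± 0.036 with 1 nM of mIL-21 and 5.001 ± 0.38 with 1 nM of 21h10. It was lower with cytokine in experiment 2, at 9.56 ± 0.014 unstimulated, 4.01 ± 0.28 with 10 nM of mIL-21, 3.92 ± 0.0089 with 10 nM of 21h10, 3.83 ± 0.22 with 100 nM of mIL-21 and 5.69 ± 0.21 with 100 nM of 21h10. These ratios, too, were not tested.

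**Figure D3:**
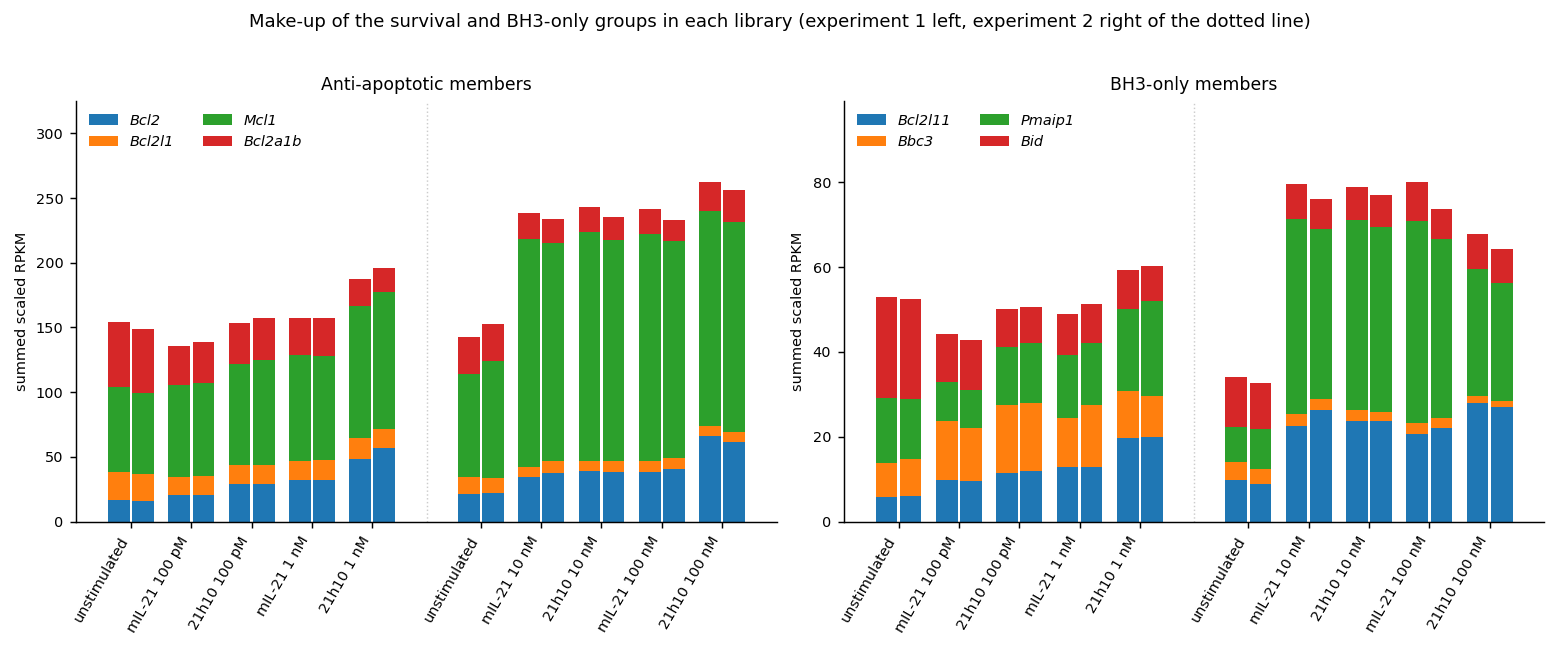
Summed scaled RPKM (y axis, from 0) of the 4 survival genes (left) and the 4 BH3-only genes (right), with 1 stacked bar for each of the 20 libraries and 1 colour for each gene. Mcl1 (green, left) made up 72.9 ± 1.3% of the survival sum with 10 nM of mIL-21, and Pmaip1 (green, right) 55.3 ± 3.8% of the BH3-only sum.

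The next comparisons set 21h10 against mIL-21 at the same dose, which asks whether the mimic and the native cytokine move the family alike. At 100 pM, 6 members differed, 5 higher and 1 lower with 21h10, beside 38.6% of all genes tested. Pmaip1 was 1.54-fold and Bcl2 1.43-fold higher (log2 0.62 ± 0.07 and 0.51 ± 0.062, adjusted p = 2.4e-06 and 4.7e-06). Bbc3 (0.28 ± 0.092), Bcl2l11 (0.27 ± 0.05) and Mcl1 (0.15 ± 0.047) were also higher, and Bid was lower (-0.42 ± 0.071, adjusted p = 1.7e-04). With mapped-read scaling the differences of Bbc3 and Mcl1 were 0.18 and 0.044 and did not pass. That of Bcl2l11 was 0.17 (adjusted p = 0.045), and with limma 0.15 and not called (adjusted p = 0.068). Without single libraries of these groups Mcl1 fell to 0.11 (duplicate 2 of 21h10) and 0.14 (duplicate 1 of mIL-21) and Bbc3 to 0.19 (duplicate 2 of mIL-21), none called, and they also missed the threshold at 0.15 (Mcl1, duplicate 2 of mIL-21), 0.27 and 0.29 (Bbc3, duplicates 1 and 2 of 21h10). For Bcl2l1 the difference was 0.021 with an interval (2 SE either side) of -0.12 to 0.16, for Bcl2a1b 0.086 (-0.05 to 0.22), for Bak1 0.12 (-0.027 to 0.26) and for Bax 0.17 (0.028 to 0.31). Bax passed with no filter on low counts (adjusted p = 0.048), with only the groups compared (0.0036) and without duplicate 1 of mIL-21 (0.26, adjusted p = 0.035), and Bak1 with only the groups compared (0.0053). Of all genes called here, 50.9% were higher with 21h10 by TMM and 28.4% with mapped reads, on which scale the median of all genes was -0.11.

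At 1 nM, 6 members again differed, 4 higher and 2 lower with 21h10, beside 37.7% of genes. Bcl2 (0.72 ± 0.061, adjusted p = 5.9e-08), Bcl2l11 (0.62 ± 0.049, adjusted p = 2.7e-08), Pmaip1 (0.51 ± 0.068) and Mcl1 (0.35 ± 0.047) were higher with 21h10. Bcl2a1b (-0.58 ± 0.074, adjusted p = 8.2e-06) and Bbc3 (-0.35 ± 0.098, adjusted p = 0.01) were lower. The Bbc3 call was lost without duplicate 2 of mIL-21 (-0.17) and without duplicate 2 of 21h10 (-0.25). Bcl2l1, Bid, Bax and Bak1 did not pass, with intervals of -0.12 to 0.16, -0.27 to 0.038, -0.034 to 0.25 and -0.21 to 0.074. Without duplicate 1 of 21h10, Bid at -0.21 and Bak1 at -0.21 passed. Of all genes called, 51.9% were higher with 21h10 by TMM, 41.1% with mapped reads and 61.2% with DESeq2 size factors.

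At 10 nM, no member differed between the cytokines by edgeR's quasi-likelihood test, 0 members had an unadjusted p under 0.05, and 1 gene of 13772 was called (0.00726%). DESeq2 called 13 genes, none of them a member. The interval for Bcl2 was -0.048 to 0.27, for Bcl2l11 -0.22 to 0.13, for Mcl1 -0.15 to 0.17 and for Pmaip1 -0.16 to 0.23, and the widest, for Bbc3, -0.52 to 0.23. Differences of about the size seen for Bcl2 at 100 pM would lie outside the first of these.

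At 100 nM, 3 members differed, beside 8.52% of genes. Bcl2 was 1.61-fold higher with 21h10 (0.69 ± 0.079, adjusted p = 4.3e-05), Bcl2l11 1.29-fold higher (0.36 ± 0.089, adjusted p = 0.018), and Pmaip1 lower, at 0.643 of its level with mIL-21 (-0.64 ± 0.098, adjusted p = 6.3e-04). The calls of Bcl2 and Pmaip1 stood without any single library, whereas Bcl2l11 did not pass without any 1 of the 4 (0.31 and 0.40 without duplicates 1 and 2 of mIL-21, 0.32 and 0.39 without those of 21h10) nor with mapped reads (0.29, adjusted p = 0.093). Bbc3 at -0.63 ± 0.2, Bcl2a1b at 0.42 ± 0.13 and Bak1 at 0.33 ± 0.1 missed the threshold (adjusted p = 0.064, 0.056 and 0.053). DESeq2 called Bcl2a1b and Bak1 (adjusted p = 0.038 and 0.023), as did edgeR with only the groups compared (0.045 and 0.0095) and with the duplicate number as a block (0.048 and 0.049), and with mapped reads Bbc3 was called at -0.70 (adjusted p = 0.049). Mcl1, the most abundant member, gave -0.063 ± 0.08, and the intervals of Bcl2l1, Bid and Bax were -0.35 to 0.16, -0.31 to 0.24 and -0.16 to 0.33. Of all genes called, 47.0% were higher with 21h10 by TMM and 30.1% with mapped reads.

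**Figure D4:**
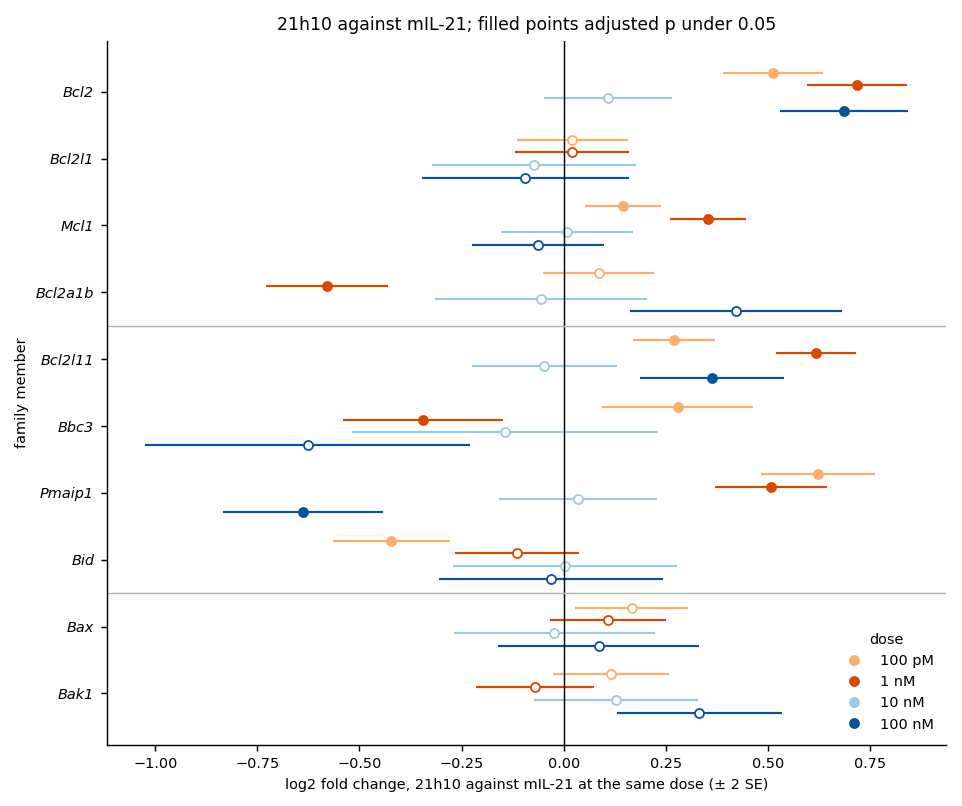
Log2 fold change of each member with 21h10 against mIL-21 at the same dose (x axis, bars 2 SE either side), coloured by dose, with filled points for adjusted p under 0.05. Bcl2 lay to the right of 0 at 100 pM, 1 nM and 100 nM (0.51, 0.72 and 0.69) and at 0.11 with 10 nM, and Pmaip1 went from 0.62 at 100 pM to -0.64 at 100 nM.

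Within each cytokine, doses were compared next. From 100 pM to 1 nM of mIL-21, 5 members changed (4 higher, 1 lower), beside 34.5% of genes. Pmaip1 (0.70 ± 0.072, adjusted p = 7.8e-07), Bcl2 (0.65 ± 0.062), Bcl2l11 (0.41 ± 0.051) and Mcl1 (0.18 ± 0.047) rose and Bid fell (-0.31 ± 0.074). The Mcl1 rise was 0.069 and not called with mapped reads, and 0.18 (adjusted p = 0.066) without duplicate 1 of 100 pM. From 100 pM to 1 nM of 21h10, 6 changed (4 higher, 2 lower), beside 39.2% of genes. The risers were again Bcl2 (0.86 ± 0.061, adjusted p = 4.5e-09), Bcl2l11 (0.76 ± 0.049), Pmaip1 (0.59 ± 0.067) and Mcl1 (0.39 ± 0.047), and Bcl2a1b (-0.75 ± 0.071) and Bbc3 (-0.63 ± 0.094) fell. Among all genes called, 51.9% rose with the mIL-21 dose and 51.4% with the 21h10 dose by TMM, and 26.1% and 38.0% with mapped reads.

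A signed term (the log2 difference between 21h10 and mIL-21 at 1 nM minus that at 100 pM) tested whether the departure of 21h10 from mIL-21 changed with dose. It passed for 5 members, beside 18.4% of genes. The difference grew for Bcl2l11 (0.35 ± 0.07, adjusted p = 0.0021), went from no call to lower for Bcl2a1b (-0.67 ± 0.1, adjusted p = 1.8e-04) and turned from higher to lower for Bbc3 (-0.62 ± 0.13, adjusted p = 0.0034). The gap of Mcl1 grew (0.21 ± 0.066, adjusted p = 0.037) and that of Bid narrowed, from -0.42 to -0.11 (0.31 ± 0.1, adjusted p = 0.048). Both were lost with no filter on low counts (adjusted p = 0.062 for Mcl1 and 0.059 for Bid), with only the groups compared (0.07 and 0.08) and with the duplicate number as a block (0.057 and 0.057), and each missed the threshold in 6 of 8 fits that left out 1 library. For Mcl1 these gave 0.17 and 0.24 without duplicates 1 and 2 of 100 pM of 21h10, 0.22 and 0.20 without those of 100 pM of mIL-21, 0.20 without duplicate 2 of 1 nM of mIL-21 and 0.17 without duplicate 2 of 1 nM of 21h10. For Bid they gave 0.33, 0.28, 0.32, 0.30 and 0.27 without the first 5 of these and 0.21 without duplicate 1 of 1 nM of 21h10. For Bcl2 the term was 0.21 ± 0.087 and did not pass (adjusted p = 0.12), though it did with mapped reads (0.26, adjusted p = 0.039) and without duplicate 1 of 1 nM of 21h10 (0.33, adjusted p = 7.3e-04). Without that library Bak1 passed too (-0.32). Of all genes passing, 45.4% had a positive term by TMM, 58.7% with mapped reads and 56.8% with DESeq2 size factors.

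In experiment 2 the rise from 10 nM to 100 nM of mIL-21 changed no member by edgeR's quasi-likelihood test, and no gene at all was called (0%, with 361 genes and 1 member, Bcl2l11 at -0.19 ± 0.088, at an unadjusted p under 0.05, and 0 genes called by DESeq2). The same rise of 21h10 changed 2 members, beside 5.33% of genes. Bcl2 was higher (0.72 ± 0.079, adjusted p = 3.8e-05) and Pmaip1 lower (-0.61 ± 0.098, adjusted p = 0.0013) at 100 nM, and both calls stood without any single library. The difference term passed for the same 2 members, beside 0.922% of genes, at 0.58 ± 0.11 for Bcl2 (adjusted p = 0.017) and -0.67 ± 0.14 for Pmaip1 (adjusted p = 0.025). Leaving out duplicate 1 of 10 nM of mIL-21 kept both, and leaving out duplicate 2 of 100 nM of mIL-21 kept Pmaip1 alone. The other 6 libraries of the 4 groups were each needed for both, with terms of 0.52 to 0.63 for Bcl2 and -0.73 to -0.58 for Pmaip1 (adjusted p up to 0.17 and 0.19), and Bcl2 gave 0.61 without duplicate 2 of 100 nM of mIL-21.

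At unequal doses, 100 pM of 21h10 and 1 nM of mIL-21 were set beside each other. In the 21h10 libraries Bcl2 was at 29.0 and 29.0 scaled RPKM, Bcl2l11 at 11.4 and 12.02 and Pmaip1 at 13.7 and 14.1. In the mIL-21 libraries they were at 31.9 and 32.0, 12.8 and 12.9 and 14.8 and 14.7. No member was called by edgeR's quasi-likelihood test, with 4 members at an unadjusted p under 0.05, beside 0.737% of genes. The largest difference was that of Bbc3, 0.28 ± 0.092 (adjusted p = 0.26), which passed without duplicate 2 of 1 nM of mIL-21 (0.46, adjusted p = 0.02). The intervals of Bcl2 (-0.26 to -0.019), Bcl2l11 (-0.24 to -0.039), Bcl2a1b (0.032 to 0.31) and Bbc3 (0.099 to 0.47) did not include 0, so a missed threshold does not show equal levels.

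Of the transcripts listed for 1 gene, the shorter Bcl2 form (2517 bases) moved as the longer (7207 bases) did. By deposited RPKM it went from 6.83 and 7.01 in unstimulated cells to 19.1 and 22.1 with 1 nM of 21h10, and the longer form from 13.8 and 13.4 to 39.0 and 45.0. With 100 nM of 21h10 the shorter went from 8.80 and 7.44 to 27.1 and 22.2 and the longer from 18.04 and 18.1 to 45.5 and 40.5. The shortest Bcl2l11 form (974 bases) went from 1.81 and 2.27 to 5.97 and 6.09 with 1 nM of 21h10, and the longest (5037 bases) from 4.897 and 5.19 to 15.9 and 15.7. Forms that share exons can count the same reads, so these are not separate measurements.

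Levels of members were correlated over the 20 libraries, after centring log2 levels within each experiment. The libraries share their 10 groups and the scaling, so these values describe the pattern and carry no test. Bcl2l11 followed Bcl2 (r = 0.92) and Mcl1 (0.92), and Pmaip1 followed Mcl1 (0.91). Each of these pairs joins a survival gene with a BH3-only gene, but other such pairs ran against each other. Bcl2l11 ran against Bcl2a1b (-0.83) and Bcl2l1 (-0.80), and Pmaip1 against both (-0.56 each). Bid ran with Bax (0.88) and Bcl2a1b (0.82), and against Bcl2l11 (-0.82).

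**Figure D5:**
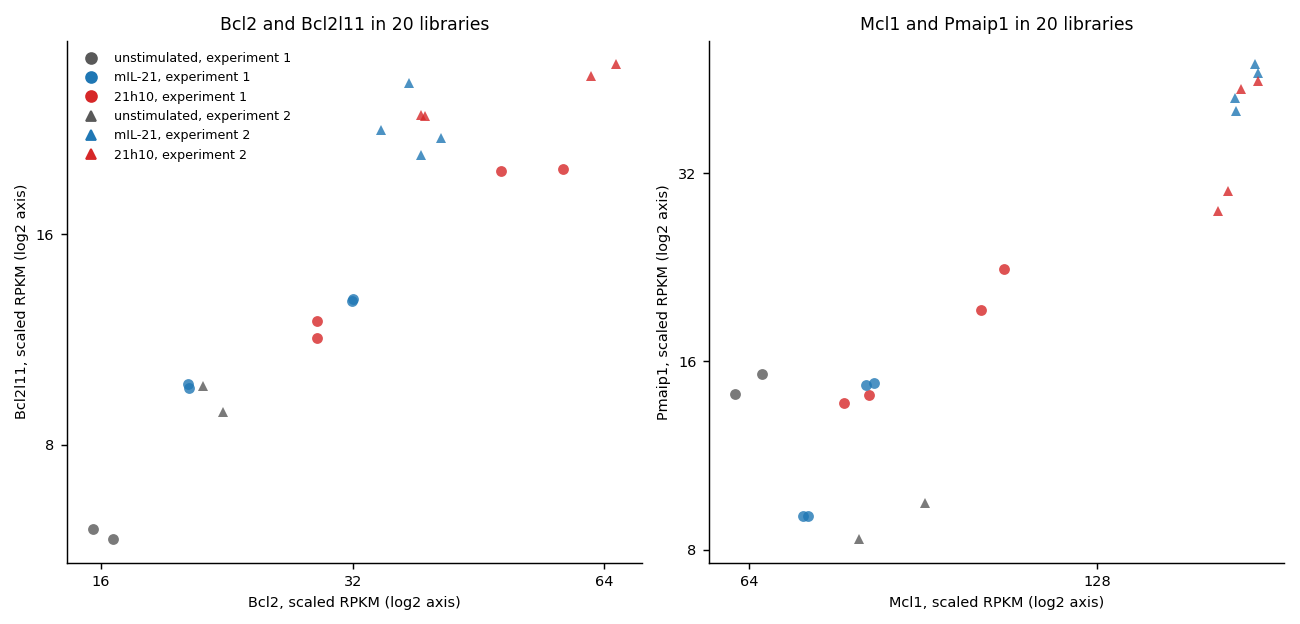
Scaled RPKM of Bcl2 against Bcl2l11 (left) and of Mcl1 against Pmaip1 (right) in the 20 libraries on log2 axes, with circles for experiment 1, triangles for experiment 2 and grey, blue and red for unstimulated, mIL-21 and 21h10. The unstimulated libraries of experiment 1 lie lowest on the left, at 5.87 and 6.06 for Bcl2l11, and the 100 nM 21h10 libraries lie below the other treated triangles on the right, at 29.9 and 27.9 for Pmaip1.

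Among the 13248 genes tested in both experiments, the 3 most like each member were found by the same correlation, for the 8 members whose group means spanned at least 0.5 on the log2 scale in both experiments (not Bax or Bak1). They were Mcf2l at 0.964, Il24 at 0.957 and Ptpn2 at 0.957 for Bcl2, and Picalm at 0.990, Sgms1 at 0.984 and Ostm1 at 0.983 for Mcl1. For Bcl2l1 they were Got2 at 0.977, Ndufv1 at 0.956 and Sgsm3 at 0.954. For Bcl2a1b they were its copy Bcl2a1d at 0.972, Rpia at 0.952 and the copy Bcl2a1a at 0.947. Bcl2l11 had Dock5 at 0.992, Fam46c at 0.989 and Icos at 0.984, the last a costimulatory receptor of T cells. Pmaip1 had Kri1 at 0.969, Btla at 0.964 and Akirin1 at 0.964, of which Btla is an inhibitory receptor. Bbc3 had Pddc1 at 0.935, Bckdha at 0.931 and Klc4 at 0.919, and Bid Gpn1 at 0.992, Slc43a3 at 0.983 and Rcl1 at 0.983.

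Other genes of the pathway were taken from 5 lists. Of 15 further BCL2 family genes 12 were tested, and with 1 nM of 21h10 6 were higher and 4 lower (median log2 0.25, beside -0.038 over all genes, of which 80.3% were called), while with 100 nM 0 were higher and 7 lower (median -0.36, beside -0.017 over all genes, of which 50.8% were called). The same shares and medians over all genes stand beside the 4 lists that follow. Bnip3 and Bnip3l, mitophagy receptors with a BH3-like region, rose by 3.09 ± 0.052 and 2.398 ± 0.056 in the former. In the other experiment they fell with 10 nM of mIL-21, at -1.35 ± 0.19 and -0.59 ± 0.12. With 100 nM of 21h10 the fall of Bnip3, to 103 and 84.3 scaled RPKM, was not called. It was called with no filter on low counts (-0.34), limma (-0.62), mapped reads (-0.62) and only the groups compared (-0.31). The fall of Bnip3l in that group was called, but not without its duplicate 2 (-0.29). Bnip3 stood at 27.7 and 26.9 scaled RPKM unstimulated and 222 and 241 with 1 nM of 21h10, and in experiment 2 went from 112 and 123 unstimulated to 36.3 and 56.0 with 10 nM of mIL-21. Bcl2l15 rose by 2.14 ± 0.18 with 1 nM of 21h10. Bcl2l14 had 34 and 48 reads in the unstimulated libraries of experiment 2 and 1 to 13 in the treated ones. In experiment 1 it was higher with cytokine, at 0.72 and 0.56 scaled RPKM unstimulated and 0.83 and 1.01 with 1 nM of 21h10. The other treated libraries of experiment 1 were at 1.16 to 1.46. The call of Bcl2l14 with 1 nM of 21h10 was lost without duplicate 2 of the unstimulated cells (0.36) and without duplicate 2 of its own group (0.35). Its calls in experiment 2 were each lost without some single libraries, and that with 100 nM of 21h10 also with DESeq2 (-1.87).

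Of 15 apoptosome, caspase and inhibitor genes, 5 were higher and 9 lower with 1 nM of 21h10 (80.3% of all genes called; median -0.55), and 5 higher and 6 lower with 100 nM (50.8% of all genes; median -0.21). Casp6, an executioner caspase, rose by 2.56 ± 0.054 with 1 nM of 21h10 and 0.99 ± 0.11 with 100 nM, from 17.97 and 17.7 to 105 and 106 scaled RPKM in the former. It was 1.39 higher with 21h10 than with mIL-21 at 1 nM and 0.89 at 100 nM, both called. Cycs, the gene of cytochrome c, fell, at -2.13 ± 0.048 with 100 pM of mIL-21 and rose by 0.70 ± 0.12 with 100 nM of 21h10. Htra2, a mitochondrial protease, fell in all 8 comparisons, at -1.50 ± 0.17 with 10 nM of 21h10. Birc2, an inhibitor of apoptosis, rose by 1.37 ± 0.067 with 1 nM of 21h10 and by 0.27 ± 0.079 with 100 nM, where mapped-read scaling turned it to -0.031, with no call, and leaving out duplicate 1 of that group gave 0.23.

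Of 10 death receptor pathway genes, 4 were higher and 2 lower with 1 nM of 21h10 (80.3% of all genes called; median 0.16), and 8 higher and 0 lower with 100 nM (50.8% of all genes; median 0.72). Fas, the death receptor, rose in all 8, by 1.72 ± 0.098 with 10 nM of mIL-21, from 22.5 and 26.0 to 83.7 and 75.9 scaled RPKM. Cflar, which encodes the caspase-8 inhibitor c-FLIP, also rose in all 8, by 1.59 ± 0.07 with 1 nM of 21h10. Fadd, the adaptor of Fas, fell in experiment 1, at -1.88 ± 0.11 with 100 pM of 21h10. In experiment 2 it went from 6.03 and 4.76 scaled RPKM unstimulated to 5.37 and 5.90 with 100 nM of 21h10. Its falls with 10 and 100 nM of mIL-21 were not called with only the groups compared (-0.44 and -0.37). Without duplicate 1 of the unstimulated cells they were -0.27 and -0.22. The fall of Fadd with 10 nM of 21h10 was not called, but was with limma (-0.37) and mapped reads (-0.49). Tnfrsf10b, the mouse TRAIL receptor, rose by 1.60 ± 0.21 with 100 nM of 21h10. In experiment 1 Tnfrsf10b fell in all 4 comparisons, from 11.2 and 11.2 scaled RPKM to 8.83 and 9.57 with 100 pM of mIL-21, 9.14 and 10.2 with 100 pM of 21h10, 9.84 and 9.74 with 1 nM of mIL-21 and 10.2 and 9.72 with 1 nM of 21h10, at -0.29 ± 0.066 with 100 pM of mIL-21. The call at 100 pM of 21h10 was lost without its duplicate 1 (-0.14), and that at 1 nM of 21h10 with DESeq2 (-0.14), with only the groups compared (-0.12) and without any 1 of 3 libraries (-0.18 and -0.18 without duplicates 1 and 2 of the unstimulated cells, -0.14 without its own duplicate 2).

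Of 12 genes of p53 and its targets outside the family, 2 were higher and 7 lower with 1 nM of 21h10 (80.3% of all genes called; median -0.69), and of 11 tested in experiment 2, 3 were higher and 5 lower with 100 nM (50.8% of all genes; median -0.053). Trp53, which encodes p53, fell in all 8, from 106 and 107 to 32.3 and 27.4 scaled RPKM with 1 nM of 21h10 (-1.84 ± 0.062), and the fall with 10 nM of mIL-21, -0.42 ± 0.099, was -0.27 and not called without duplicate 1 of that group. The p53 target Phlda3 fell in all 8, at -1.95 ± 0.34 with 10 nM of 21h10. Cdkn1a, the cell cycle inhibitor p21, rose by 2.08 ± 0.048 with 1 nM of 21h10. In experiment 2 Cdkn1a went from 21.5 and 18.5 scaled RPKM unstimulated to 37.8 and 28.4 with 100 nM of 21h10, a call lost with limma (0.40). Its level in the other treated libraries of experiment 2 was 18.7 to 24.2. The nuclease gene Aen fell, at -2.29 ± 0.064 with 100 pM of 21h10 and rose by 0.55 ± 0.11 with 10 nM of mIL-21.

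Of 12 regulators of family members, 8 were higher and 2 lower with 1 nM of 21h10 (80.3% of all genes called; median 1.28), and 6 higher and 1 lower with 100 nM (50.8% of all genes; median 0.24). Ddit3, the stress factor CHOP that can induce Bcl2l11, rose in all 8, by 3.42 ± 0.075 with 1 nM of 21h10, from 10.2 and 9.87 to 98.5 and 115 scaled RPKM. Stat3, the main STAT of the IL-21 receptor, rose by 1.87 ± 0.046 in that group and by 0.30 ± 0.084 with 100 nM of 21h10, where it was -0.0011 and not called with mapped reads and 0.29 and not called without duplicate 2. Stat5a rose by 1.86 ± 0.049 with 1 nM of 21h10, 1.23 above its level with 1 nM of mIL-21. Foxo3, a FOXO factor known to act on Bcl2l11 and Bbc3, rose by 1.49 ± 0.068 with 1 nM of 21h10. In experiment 2 it stood at 8.19 and 7.67 scaled RPKM unstimulated. It was called lower with 10 nM of mIL-21 (5.58 and 6.74) and of 21h10 (6.04 and 6.10). The former call was lost with DESeq2 (-0.35), the duplicate number as a block (-0.36) and only the groups compared (-0.34). Both were lost without duplicate 1 of the unstimulated cells (-0.31 and -0.34). With 100 nM of 21h10 Foxo3 was at -0.35 ± 0.15, which did not pass. That change was called as lower with no filter on low counts (-0.37, adjusted p = 0.023), with limma (-0.56), with mapped reads (-0.65) and without duplicate 1 of that group (-0.60).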

How the data were processed

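RNA was sequenced from 20 libraries of mouse CD8+ T cells, with 1 deposited table per library. The authors prepared poly(A) libraries, aligned reads to mm10 (GRCm38) with TopHat 2.0.11 and counted reads over the exons of 31682 RefSeq transcripts. The submitters' processing notes also list Bowtie2 2.2.6, SAMtools 0.1.8 and bedtools 2.25.0. The deposited counts are raw, whole reads per transcript, and the deposited RPKM are those counts divided by transcript length and by mapped reads, computed by the authors. How the counting treated strand and reads shared between copies is not given in the sources used here.

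The longest transcript stood for each of 23992 symbols. For each experiment the counts of all 10 libraries were fitted in edgeR 4.0.16 (R 4.3.3) with TMM scaling and group as the only term, after edgeR's filter on low counts (least count 10, least total 15), and tested by quasi-likelihood with Benjamini-Hochberg adjustment over all genes tested and a threshold of 0.05. Alternatives were DESeq2 1.42.0, no filter, limma 3.58.1 on log2(RPKM + 1) for genes at 1 or more in at least 2 libraries, the compared groups alone, the duplicate number as a block, the most-read transcript, mapped-read library sizes, and each library left out. Where that left a group with 1 library, it was assumed to vary like the other groups. The steps were tested on simulated counts in which few genes changed and all genes had the same spread. That test does not cover the scaling where most genes change. Copies were found with BLAST 2.17.0, and positions come from GENCODE M21. RPKM from 1 library carries no interval, and the duplicates of a group are the only measure of error.

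All 10 members were named in every comparison. From each of 5 lists, at most 4 genes with the largest log2 change against unstimulated cells among those called were named, with sequence copies of members. The members and lists were chosen with earlier results of these data known, so no list is independent support. Members' proteins were not analysed here.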

Additional observations from a re-analysis of the deposited data

Results flagged for a closer look

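For 5 members, beside 18.4% of genes, the departure of 21h10 from mIL-21 was not the same at 1 nM as at 100 pM, by the test of that difference. The log2 difference was -0.62 for Bbc3, -0.67 for Bcl2a1b, 0.35 for Bcl2l11, 0.31 for Bid and 0.21 for Mcl1. Those of Bid and Mcl1 did not pass with no filter on low counts, with the duplicate number as a block or with only the groups compared. For 2 members, beside 0.922% of genes, the departure was not the same at 100 nM as at 10 nM, with 0.58 for Bcl2 and -0.67 for Pmaip1. Neither passed with limma, and most fits that left out a library lost them.

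Bbc3 and Bak1 moved one way in every treated library of experiment 1 and the other way in every treated library of experiment 2. The mean log2 change of treated against unstimulated libraries was 0.68 in experiment 1 and -0.79 in experiment 2 for Bbc3, and -0.25 and 0.50 for Bak1. These differences between the experiments were not tested, and the dose range changed with the experiment.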

How the results depend on the processing

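Over the members' results and the alternatives run, 2049 values kept their side of the threshold, 91 lost a call and 30 gained one. No value called in either fit changed direction. Values called in neither fit count among the 2049 whatever their sign. The number of members called with 21h10 against mIL-21 at 100 pM was 6 and became 3 with limma. At 100 nM it was 3 and became 5 with DESeq2, 5 with no filter, 5 with the replicate block and 5 with only the groups compared. For the difference between 1 nM and 100 pM it was 5 and became 3 with no filter, 3 with the replicate block and 3 with only the groups compared, each time without Bid and Mcl1. For that between 100 nM and 10 nM it was 2 and became 0 with limma. For 100 pM of 21h10 against 1 nM of mIL-21 it was 0 and became 1 (Bbc3) with no filter. The cause of these changes was not tested.

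Without 1 library at a time, the count ran from 3 to 6 for the difference between 1 nM and 100 pM, from 0 to 2 for that between 100 nM and 10 nM, from 0 to 1 for the unequal doses, from 4 to 6 for 21h10 against mIL-21 at 100 pM and from 5 to 8 at 1 nM, and stayed at 0 at 10 nM and at 2 at 100 nM. Against unstimulated cells it ran from 7 to 10 over all 8 comparisons.

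The labels do not say that duplicate numbers pair the libraries. Deviations of same-numbered libraries correlated at -0.062 to 0.029 in experiment 1 and -0.17 to 0.23 in experiment 2, where 3 of 10 pairs of groups were above 0.1, so the numbers were not taken to pair libraries. The block changed no count of members by over 1.5 times but those given above. Of genes outside the family, Birc2 with 100 nM of 21h10 against unstimulated cells reversed to -0.031 with limma and -0.031 with mapped reads, and Stat3 to -0.0011 with mapped reads, none called. Of the members, Bbc3 had the fewest reads, at 77 to 359 a library in experiment 2, and the part of depth in its lost calls was not tested. Called values of members that moved by over 1.5 times with no change of call and are not given in the report were 0.54 for Bcl2 with 10 nM of 21h10 (limma), -0.78 for Bid with 100 nM of 21h10 (mapped reads) and 0.22 for Bbc3 with 1 nM of 21h10 (limma), all against unstimulated cells, and 0.27 for Bcl2l11 from 100 pM to 1 nM of mIL-21 (limma).

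The number of all genes called, behind the shares printed beside the members, moved by over 1.5 times in some fits. For 21h10 against mIL-21 at 10 nM it was 1 and ran from 0 (limma) over 4 (replicate block) and 13 (DESeq2) to 179 (no filter) in the other fits, and at 100 nM it was 1174 and became 2026 with only the groups compared. For 100 nM against 10 nM of 21h10 it was 734 and became 1150 with no filter, 409 with limma and 1553 with only the groups compared, and for mIL-21 it was 0 and became 14 with no filter. For the difference between 100 nM and 10 nM it was 127 and became 217 with DESeq2, 257 with no filter, 63 with limma and 265 with only the groups compared. For 100 pM of 21h10 against 1 nM of mIL-21 it was 103 and became 195 with no filter and 41 with limma. Without 1 library it ran from 373 to 637 for 21h10 against mIL-21 at 100 nM, from 0 to 5 at 10 nM, from 3505 to 3934 at 100 pM (5398 with all), from 254 to 338 for 100 nM against 10 nM of 21h10, from 3008 to 4255 for 1 nM against 100 pM of mIL-21 (4825 with all), from 45 to 94 and from 1650 to 3268 (2569 with all) for the differences at the higher and lower doses, and from 31 to 151 for the unequal doses. Against unstimulated cells no alternative moved it by that much.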
